A study of Mus musculus with 8 samples.

Results

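Respiratory complex I is the largest enzyme of the mitochondrial respiratory chain. Its genes were taken as every measured gene whose symbol begins with Nduf, then a, b, c, s, v or ab, then a digit, which leaves out the assembly factors named Ndufaf. The rule found 44 of the 15519 genes in the table. They were the 37 nuclear genes for subunits of the complex, Ndufa4, whose protein was once counted as a subunit and is now placed with complex IV, and 6 extra copies or pseudogenes (Ndufa12-ps, Ndufab1-ps, Ndufb4b, Ndufb4c, Ndufs5-ps and Ndufs6b).

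The 8 libraries held nuclear RNA from pyramidal cells of the hippocampus of wild-type (WT) mice, prepared with the SMART-Seq mRNA LP kit. The cells were place cells, which fire at particular places in an environment. They were recognised by functional imaging in vivo during navigation, phototagged, and collected as nuclei. The labels put 4 libraries in a group called Day 0 and 4 in a group called Recurring, and do not define these names further. Every title carries a different mouse number, no treatment or allele other than WT is named for either group, and no age, sex, date, batch or number of nuclei per library is given in the sources used here. Replicates were numbered in order of deposit and pair nothing across the groups.

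Complex I takes electrons from NADH, passes them along a chain of iron-sulfur clusters to ubiquinone, and pumps protons across the inner mitochondrial membrane. In the matrix, the N module oxidises NADH and the Q module hands the electrons to ubiquinone. The proximal and distal membrane arms hold the proton pumps and many small accessory subunits. The complex has 14 core subunits, 7 of nuclear and 7 of mitochondrial genes, and neurons depend heavily on it for the ATP that ion pumping and synaptic transmission use. What was sequenced here was RNA of nuclei, so the values describe transcripts before or during export and not protein or enzyme activity.

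Library depth was 8374986 to 11789782 reads in Day 0 and 8613854 to 14887866 reads in Recurring libraries. Reads of mitochondrially encoded genes made up 0.0279% ± 0.0209 (SD, n = 4) of Day 0 and 0.0638% ± 0.0416 (SD, n = 4) of Recurring libraries (2-sided exact permutation p = 0.171, adjusted over 3 library measures 0.514, where the smallest possible p is 0.0286). All 12 genes of a CA1 pyramidal marker list were read in both groups, with a sum of 3525 to 5224 RPM (reads per 1000000 reads of the library) in Day 0 and 3219 to 5527 in Recurring libraries. Markers of other cells were also read. Their sums reached 924 RPM for 8 interneuron genes (Recurring replicate 2), 1687 for 8 astrocyte genes (Recurring replicate 1), 1213 for 8 oligodendrocyte genes (Day 0 replicate 4) and 640 for 5 microglia genes (Recurring replicate 4). The lowest sums in any library were 29.8, 223, 140 and 21.3 RPM for these 4 lists, in that order, and the microglial gene Tmem119 was at 0 in every Day 0 library. Lists of other hippocampal neurons summed to 203 to 562 RPM (6 dentate granule genes) and 291 to 1696 RPM (6 CA3 genes, highest in Day 0 replicate 4). Astrocyte genes had a median difference of 1.97 (6 of 8 tested higher in Recurring libraries, 3 at an unadjusted limma p under 0.05). Microglia genes had a median of 4.57 (3 of 4 higher, 2 at that p, lowest difference -5.35), and none was read in all 8 libraries. Over all genes tested, 3.62% were at that p. Interneuron, dentate granule and CA3 genes had 4 of 5 higher each, and oligodendrocyte genes 2 of 7. CA1 genes had 6 of 12 higher, with 1 at that p. None of these genes passed the adjusted threshold of limma. In such pooled nuclei, fewer nuclei of a type and less RNA per nucleus cannot be told apart.

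The sequence around the transcription start of the subunit genes was also read, since genes that share a promoter element could be looked at together. A window of 250 bases before to 50 bases after the transcription start (RefSeq, mouse build GRCm38.p6, an earlier build than the one the reads were aligned to) was found for 35 of the 44 genes, 33 of them among the 37 subunits. Median GC content was 59.0% in the 33 windows and 52.8% over 27025 genes, and the median number of CpG dinucleotides was 20 against 7. The following short words were searched on both strands: CGCATGCG, the core that nuclear respiratory factor NRF1 binds, CCGGAAG, bound by ETS factors such as GABP, AAGATGGC, a core of YY1 sites, AAGGTCA, the core of the sites of oestrogen-related receptors, and TATAAA, the TATA box. The YY1 word was in 7 of 33 subunit windows (21.2%) and in 3.19% of all windows. In all 7 it lay on the gene's own strand within the 50 bases after the start, a placing found in 1.04% of all genes. This restriction was chosen after the matches were seen. The NRF1 word was in 2 of 33 (6.06%, against 2.07% of all windows), the ETS word in 4 (12.1%, against 9.93%), the receptor word in 3 (9.09%, against 5.38%) and the TATA box in 4 (12.1%, against 15.7%).

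The 7 windows with the YY1 word are shown because it was the word they shared at a like distance from the start, 23 to 39 bases downstream. Each is 30 bases of the gene's strand, 5′ to 3′, with the word in capitals.
Ndufa3: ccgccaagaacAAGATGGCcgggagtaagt
Ndufa9: cattgtgggagAAGATGGCggccgccgtcc
Ndufb8: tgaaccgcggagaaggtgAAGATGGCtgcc
Ndufc1: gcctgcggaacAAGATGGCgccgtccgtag
Ndufs4: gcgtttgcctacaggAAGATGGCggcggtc
Ndufs6: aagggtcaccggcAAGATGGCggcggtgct
Ndufs7: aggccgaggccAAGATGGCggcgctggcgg
They lie at chr7:3617384-3617413 (plus strand), chr6:126849097-126849126 (minus), chr19:44555393-44555422 (minus), chr3:51408915-51408944 (minus), chr13:114388045-114388074 (minus), chr13:73328433-73328462 (minus) and chr10:80249462-80249491 (plus), in that order. The word contains ATG, and whether this is the gene's start codon was not read here. The NRF1 word lay 59 bases before the start of Ndufa11 and 9 bases before that of Ndufa8, and these windows are shown because Ndufa8 is among the genes described below.
Ndufa11: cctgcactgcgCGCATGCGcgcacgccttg
Ndufa8: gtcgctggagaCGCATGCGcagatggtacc
They lie at chr17:56717692-56717721 (plus strand) and chr2:36049329-36049358 (minus). A match describes the letters and says nothing of binding. Of the 7 genes with the YY1 word, 3 had a higher and 4 a lower mean log2 value in Recurring libraries.

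The comparison asked which complex I genes separate Recurring from Day 0 place cells. None did at the threshold. Values were normalized counts, the reads of a gene divided by the size factor of the library, tested as log2 of the normalized count plus 1. Genes were tested where 4 or more libraries had a normalized count of at least 10. Of the 44 genes 41 were, including all 37 subunits. With limma, 0 of 41 had an adjusted p under 0.05, and over all 11078 genes tested 0% did. At an unadjusted p under 0.05 there were 0 complex I genes, and 3.62% of all genes tested. The lowest unadjusted p of the 41 was 0.112 and the lowest adjusted p was 0.981.

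Differences were spread on both sides of 0. Recurring libraries had the higher mean log2 value in 23 of the 41 genes and the lower in 18, and over all genes tested the split was 5553 and 5525. By mean normalized count, which a single high library can carry, the split was 26 and 15, and 11 genes changed sides (Ndufa3, Ndufa6, Ndufa7, Ndufa11, Ndufab1, Ndufb2, Ndufb11, Ndufc1, Ndufc2, Ndufs4 and Ndufv3). Below, higher and lower refer to the mean log2 value unless a mean count is named. The median difference was 0.35 log2 units over the 41 genes, 0.16 over the 37 subunits and 0.0050 over all genes tested. This median depended on the libraries, since leaving out Day 0 replicate 3 brought it to 0.067 and leaving out Recurring replicate 3 brought it to 0.60. Without Recurring replicate 1, 32 of the 41 were higher in Recurring libraries, as were 54.2% of all genes tested.

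Groups that did not overlap were seen for 2 of the 41 genes, Ndufa5 and Ndufb1, and for 2.41% of all genes tested. Of the 37 subunits, 28 had reads in all 8 libraries (75.7%, against 54.4% of all genes tested), and 3.38% of their values were 0, against 11.3%. Their median level was 8.42 on the log2 scale, against 7.28, without correction for gene length. The median standard error of the difference was 0.98 for the subunits and 1.78 for all genes tested. No complex I gene had a 95% interval within 1 log2 unit of 0, which 219 genes of the table had, so the interval of each of the 41 took in a 2-fold difference in at least 1 direction.

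**Figure D1:**
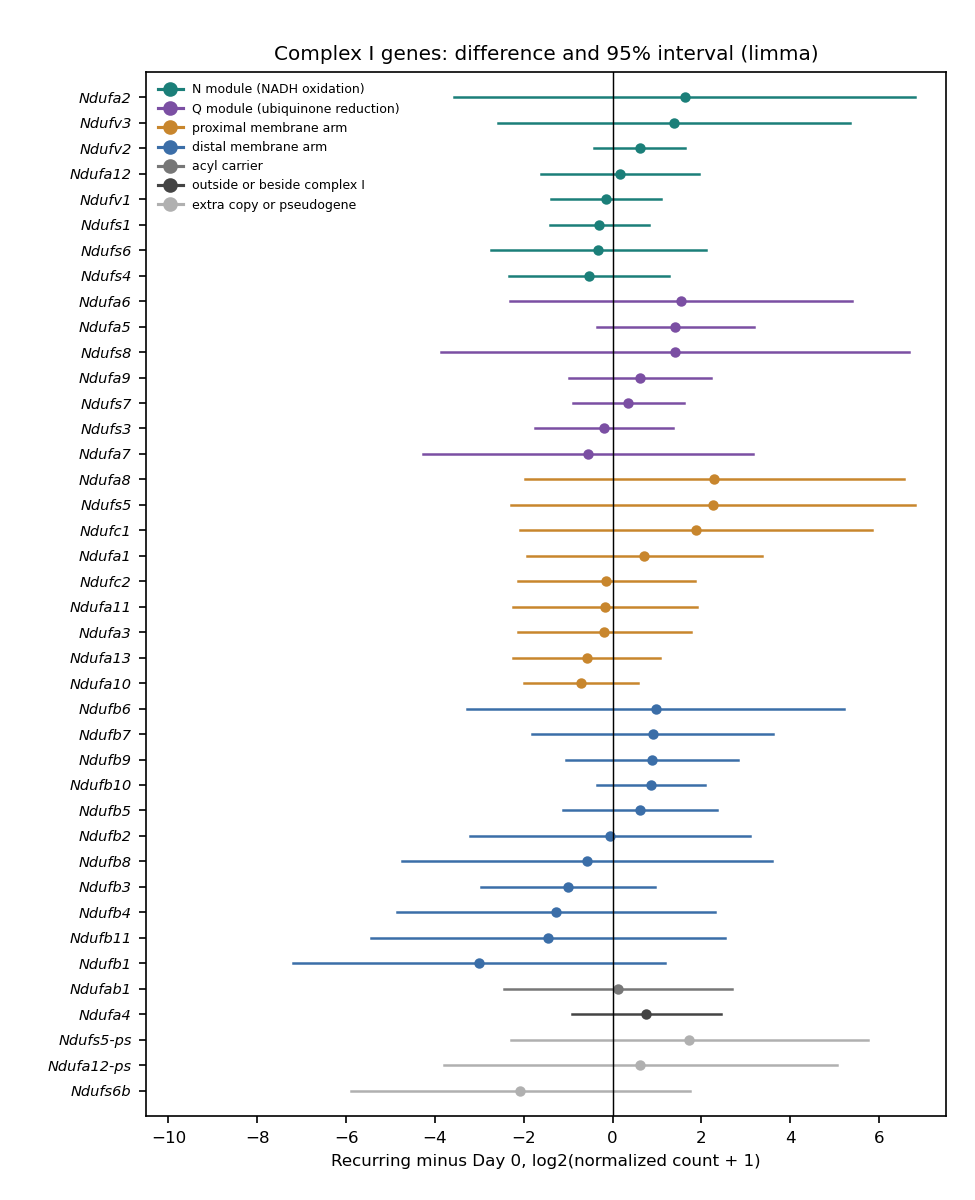
Differences between Recurring and Day 0 libraries in log2(normalized count + 1) for 40 complex I genes tested, grouped and coloured by place in the complex (points, limma estimate; lines, 95% interval; 4 libraries per group). Every line crosses 0, and the narrowest intervals are those of Ndufv2, Ndufs1, Ndufb10 and Ndufv1.

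The N module had 8 genes, 4 with a higher and 4 with a lower mean log2 value in Recurring libraries, and a median difference of 0.0067. Ndufv1 carries the flavin that takes electrons from NADH. Its normalized counts were 988, 1428, 688 and 2612 in Day 0 replicates 1 to 4 and 740, 982, 2043 and 1140 in Recurring replicates 1 to 4. The groups overlapped, with the highest and the lowest of the 8 both in Day 0, and the difference was -0.15 (SE 0.59, 95% interval -1.39 to 1.09). Ndufv2, its iron-sulfur partner, stood at 1471, 880, 1668 and 1839 in Day 0 and at 1369, 2633, 1799 and 3362 in Recurring libraries. Recurring replicates 2 and 4 were above all others, and replicate 1 was below 3 of the 4 Day 0 libraries. The difference of 0.61 (SE 0.48, -0.41 to 1.64) had the smallest standard error of the 41 genes.

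Ndufs1, the largest core subunit and the holder of several iron-sulfur clusters, stood at 4334, 1852, 1159 and 1590 in Day 0 and at 2048, 2532, 993 and 1254 in Recurring libraries. Day 0 replicate 1 was far above the rest, and without it the difference of -0.30 (SE 0.53) became 0.082. Ndufs4 is an accessory subunit whose loss causes a Leigh syndrome-like disease in mice. It was even in Day 0 libraries, at 687, 880, 716 and 860, and uneven in Recurring libraries, at 91.7, 1628, 602 and 942. Both the lowest and the highest of the 8 were Recurring libraries, and the difference was -0.53 (SE 0.85), or 0.32 without Recurring replicate 1. The other N module genes were Ndufa2, Ndufa12, Ndufs6 and Ndufv3, with differences of -0.32 to 1.62. Ndufa2 was at 0 in Recurring replicate 1, and without that library its difference of 1.62 was 3.53. Ndufv3 was at 0 in Day 0 replicate 3, and without it the difference of 1.38 turned to -0.89. Ndufa12 and Ndufs6 turned to -0.11 and 0.091 without their lowest libraries. Leaving out a gene's lowest library can only raise the mean of that library's group. The direction of every such change, here and below, was therefore fixed by the choice of library.

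The Q module had 8 genes, 6 with a higher and 2 with a lower mean log2 value in Recurring libraries, and a median difference of 0.67. Ndufa5 is an accessory subunit of the matrix arm. Its normalized counts were 434, 345, 337 and 110 in Day 0 and 505, 585, 905 and 1055 in Recurring libraries. Every Recurring library was above every Day 0 library, the nearest being Recurring replicate 1 at 505 and Day 0 replicate 1 at 434. The ratio of the mean normalized counts was 2.49, and the difference was 1.41 log2 units (SE 0.84, 95% interval -0.36 to 3.19, limma adjusted p = 0.981). It was 0.98 to 1.63 under the 18 alternative settings and never passed the adjusted threshold. Its sign could not turn when a library was left out or the pseudocount changed, since the groups did not overlap.

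The core subunits of the Q module build the path to ubiquinone. Ndufs7, which holds the last iron-sulfur cluster before ubiquinone, stood at 634, 747, 776 and 1539 in Day 0 and at 1416, 1120, 664 and 1427 in Recurring libraries. The groups were intermixed, the highest over the lowest value was 2.43, the smallest ratio among the members read in all 8 libraries, and the difference was 0.35 (SE 0.59).

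Ndufs3, a core subunit without a cluster, stood at 447, 740, 543 and 975 against 276, 525, 951 and 743, with a difference of -0.19 (SE 0.73). Its groups overlapped over most of their range. Ndufs8, which carries a pair of clusters, had no reads in Day 0 replicate 1 or in Recurring replicate 1. In the other libraries it stood at 286, 184 and 163 in Day 0 and at 771, 536 and 1019 in Recurring cells. The libraries at 0 gave it the largest standard error of the 41 genes, 2.50, beside a difference of 1.40. Without Day 0 replicate 1 the difference was -0.52, and without Recurring replicate 1 it was 3.79. Ndufa9, an accessory subunit of the dehydrogenase fold near the ubiquinone site, stood at 990, 516, 694 and 786 against 248, 2327, 909 and 2917. Recurring libraries held both the lowest and the 2 highest values, and the difference was 0.61 (SE 0.75). Without Recurring replicate 1 it was 1.33, with an unadjusted limma p of 0.0437 and an adjusted p no lower than 0.935 in any setting. Of all genes tested, 4.14% were at an unadjusted p under 0.05 without that library. Ndufa6 and Ndufa7, the remaining accessory subunits, differed by 1.54 (SE 1.82) and -0.55 (SE 1.76). Both turned without their lowest library, Ndufa6 to -0.83 without Day 0 replicate 3 (0 reads) and Ndufa7 to 0.98 without Recurring replicate 2 (4 reads).

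The proximal membrane arm had 9 genes, 4 higher and 5 lower by mean log2 value (6 and 3 by mean count), and a median difference of -0.14. Ndufa10, which has the fold of a nucleoside kinase, stood at 1247, 1358, 1368 and 2384 in Day 0 and at 315, 1239, 1108 and 1757 in Recurring libraries. Of the Recurring libraries, 3 were below every Day 0 library and replicate 4 was above 3 of them. The difference was -0.71 (SE 0.61, 95% interval -2.003 to 0.57), or -0.19 without Recurring replicate 1. Ndufa13, also known for a part in cell death, stood at 907, 584, 670 and 910 against 155, 759, 405 and 1337. Recurring libraries lay on both sides of Day 0, with a difference of -0.58 (SE 0.79).

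Ndufa8, a cysteine-rich subunit of the intermembrane space, had reads in 7 of the 8 libraries. It stood at 673, 412, 0 and 35.1 in Day 0 and at 76.8, 582, 131 and 966 in Recurring libraries. The difference was 2.29 (SE 2.02), and without Day 0 replicate 3, the library at 0, it was 0.36. Ndufc1 differed by 1.87 (SE 1.88), and by -0.27 without Day 0 replicate 1, where it was at 0. Ndufs5 differed by 2.27 (SE 2.16), and by 0.70 without Day 0 replicate 4, where it was at 0. The remaining 4 genes, Ndufa1, Ndufa3, Ndufa11 and Ndufc2, were read in every library and differed by -0.19 to 0.71. Without Recurring replicate 1, their lowest library, Ndufa3, Ndufa11 and Ndufc2 turned to 0.41, 0.64 and 0.41.

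The distal membrane arm had 11 genes, 5 higher and 6 lower by mean log2 value (7 and 4 by mean count), and a median difference of -0.061. Ndufb1, a small single-pass membrane subunit, stood at 404, 156, 182 and 315 in Day 0 and at 0, 70.2, 121 and 99.4 in Recurring libraries. Every Day 0 library was above every Recurring library, the nearest being Day 0 replicate 2 at 156 and Recurring replicate 3 at 121. The mean normalized count in Day 0 was 3.63 times that in Recurring libraries, and the difference was -3.01 log2 units (SE 1.98, 95% interval -7.19 to 1.17, limma adjusted p = 0.981). Without Recurring replicate 1, the library at 0, it was -1.36.

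Ndufb10, a cysteine-rich subunit, stood at 1086, 1030, 623 and 466 in Day 0 and at 1406, 1791, 936 and 1530 in Recurring libraries. Recurring replicate 3 lay among the Day 0 libraries and the other 3 were above them. The difference was 0.87 (SE 0.58, 95% interval -0.35 to 2.09), and it was positive in all 18 alternatives, at 0.51 to 1.05. Ndufb3 stood at 915, 308, 574 and 621 against 151, 127, 438 and 737, a difference of -1.002 (SE 0.93). The 2 lowest values were Recurring libraries and the highest was Day 0 replicate 1. Ndufb5 stood at 230, 389, 621 and 419 against 1246, 598, 618 and 277, a difference of 0.61 (SE 0.82). Only Recurring replicate 1 was far from the rest, and it was the highest. The same library held the lowest value of 15 other subunits, not counting a tie at 0 for Ndufs8. The other 7 genes of this arm differed by -1.46 to 0.97. In Recurring replicate 1 Ndufb11 was at 0 and Ndufb4 at 5.57. Without that library Ndufb11 turned from -1.46 to 0.76, Ndufb2 from -0.061 to 0.66 and Ndufb8 from -0.59 to 0.21, and Ndufb4 went from -1.28 to -0.14.

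**Figure D2:**
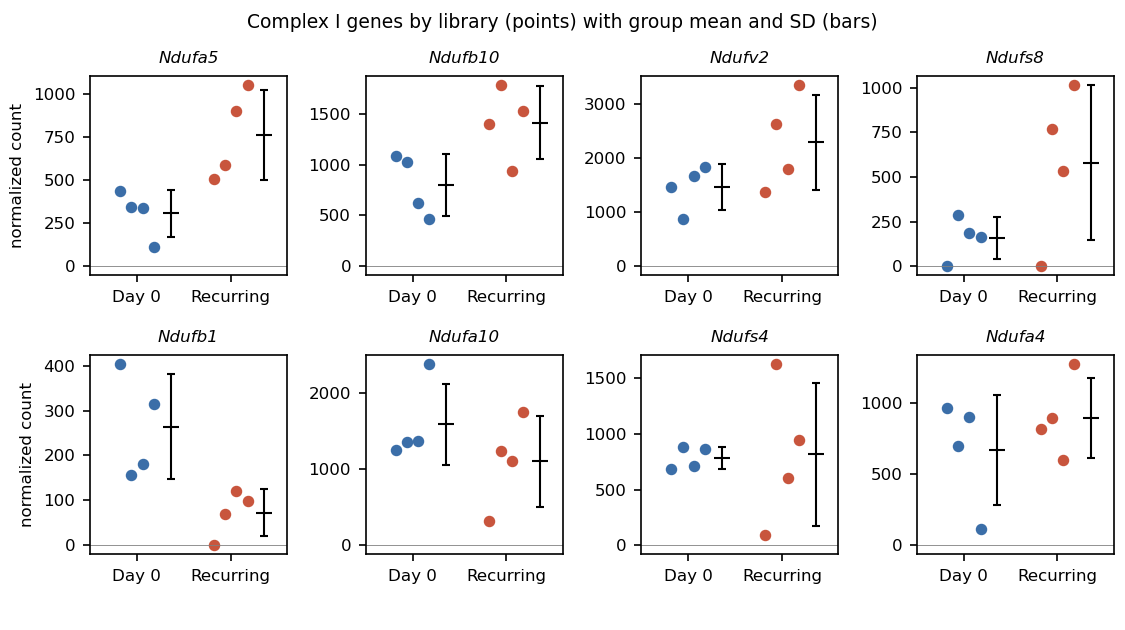
Normalized counts of 8 complex I genes in each library (points), with the mean and SD of each group of 4 libraries (black bars), on linear axes that include 0. Groups are apart for Ndufa5 (Recurring above) and Ndufb1 (Recurring below) and overlap for the other 6 genes.

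Ndufab1, the mitochondrial acyl carrier protein, serves both complex I and mitochondrial fatty acid synthesis. It stood at 416, 137, 53.8 and 1533 in Day 0 and at 128, 509, 180 and 566 in Recurring libraries. The lowest and the highest were Day 0 libraries, 28.5 times apart, and the difference was 0.12 (SE 1.22). Ndufa4 stood at 964, 696, 899 and 112 against 817, 897, 600 and 1274. Day 0 replicate 4 was the only library far below the rest, and without it the difference of 0.76 (SE 0.79) was 0.034.

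The extra copies had few reads, and their near-identical sequence to Ndufa12, Ndufab1, Ndufb4, Ndufs5 and Ndufs6 means that reads of the parent gene could be counted in the copy or dropped, so these values are uncertain. Ndufs6b stood at 16.4, 0, 31.1 and 21.0 in Day 0 and at 37.8, 0, 0 and 0 in Recurring libraries, a difference of -2.08 (SE 1.80). The highest value was a Recurring library and 3 others of that group were at 0. Ndufs5-ps and Ndufa12-ps differed by 1.73 (SE 1.91) and 0.63 (SE 2.09), and Ndufa12-ps turned to -0.082 without Day 0 replicate 1. The 3 copies that missed the filter were Ndufab1-ps, with a normalized count of at most 9.13, Ndufb4b, with at most 12.2, and Ndufb4c, which reached 37.5 in Recurring replicate 4 and was at 0 in the other Recurring libraries.

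Complex I varied widely between libraries of the same group. The reads of the 37 subunits summed to 2616, 2121, 1539 and 2662 RPM in Day 0 replicates 1 to 4 and to 1607, 2478, 2180 and 3585 in Recurring replicates 1 to 4, or 2235 ± 525 and 2463 ± 831 (SD, n = 4). The group means lay closer together than the SD of either group. The 2 lowest sums were in different groups, Day 0 replicate 3 and Recurring replicate 1, and the highest was Recurring replicate 4. That library held the highest value of the 8 for 17 of the 37 subunits and the lowest for 0. Recurring replicate 1 held the lowest for 15 of the 37, not counting Ndufs8, which was at 0 both there and in Day 0 replicate 1. Day 0 replicate 4 held the highest for 10 and the lowest for 5. These counts were not made over all genes tested, so they have no background here.

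Each subunit was also set against its own mean over the 8 libraries on the log2 scale. In Recurring replicate 4, 33 of 37 subunits were above their mean (89.2%, against 57.7% of all genes tested), with a median deviation of 1.12 where that of all genes was 0.31. In Recurring replicate 1, 15 of 37 were above (40.5%, against 51.2%), with a median deviation of -0.70 where that of all genes was 0.072. In Day 0 replicate 3, 13 of 37 were above (35.1%, against 56.9%), with a median deviation of -0.34 against 0.27. The other libraries had 21 to 28 subunits above their mean. The subunits at 0 were Ndufc1 and Ndufs8 in Day 0 replicate 1, Ndufa6, Ndufa8 and Ndufv3 in Day 0 replicate 3, Ndufs5 in Day 0 replicate 4, and Ndufa2, Ndufb1, Ndufb11 and Ndufs8 in Recurring replicate 1. The share of all tested genes at 0 was 19.2% in Day 0 replicate 4, 17.6% in Recurring replicate 1 and 3.08% to 12.5% in the rest. Recurring replicate 1 also had the highest astrocyte marker sum (1687 RPM, against 223 to 910 in the others), and Recurring replicate 4 the highest microglia sum (640, against 21.3 to 188). The part of these measures in the complex I values was not tested.

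**Figure D3:**
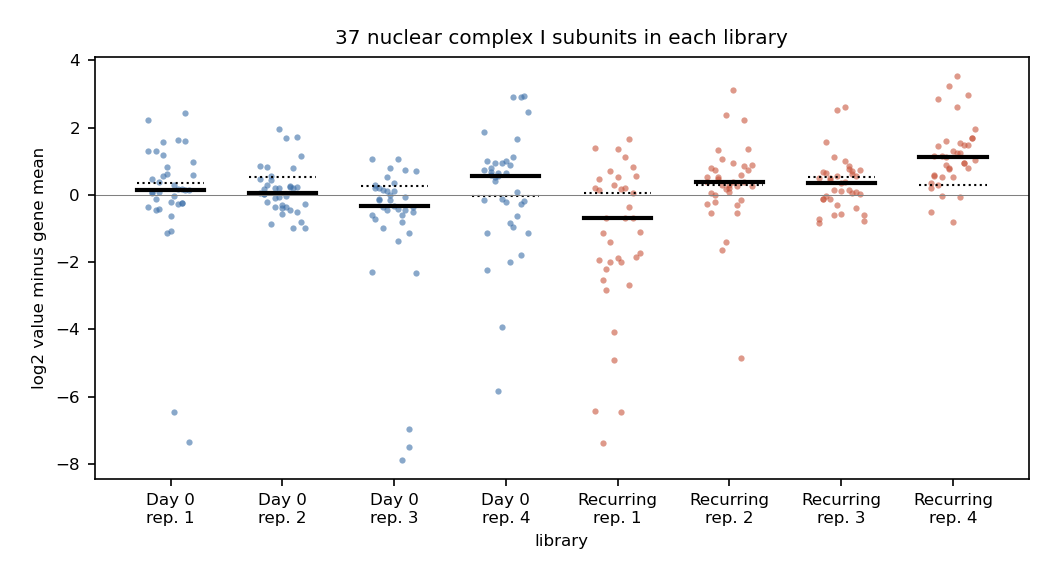
Log2(normalized count + 1) of each of the 37 nuclear subunits minus its mean over the 8 libraries (points; blue Day 0, red Recurring), with the median of the subunits (solid bar) and of all 11078 genes tested (dotted bar). The subunits sit above the dotted bar in Day 0 replicate 4, Recurring replicate 4 and, slightly, Recurring replicate 2, and below it in the other 5 libraries.

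By module, the summed RPM were 481 to 1027 in Day 0 and 555 to 908 in Recurring libraries for the N module, and 389 to 573 and 477 to 1086 for the Q module. For the proximal arm they were 384 to 685 and 190 to 950, and for the distal arm 279 to 458 and 371 to 615. Day 0 replicate 3 had the lowest sum of the N, Q and distal modules. Recurring replicate 1 had the lowest of the proximal arm, while Recurring replicate 4 had the highest of the Q module and of both arms. The N module was highest in Day 0 replicate 1, where 5829 reads came from Ndufs1.

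**Figure D4:**
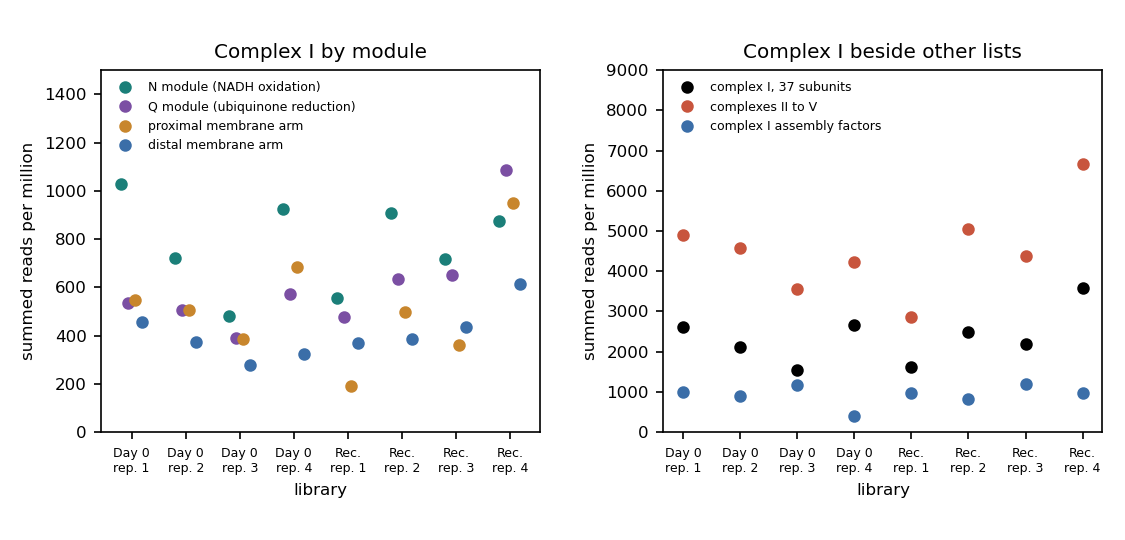
Summed reads per 1000000 reads (RPM) in each library for the complex I modules (left) and for complex I, complexes II to V and the complex I assembly factors (right; points are single libraries, axes start at 0). Recurring replicate 4 is highest and Day 0 replicate 3 and Recurring replicate 1 are lowest for complex I and for complexes II to V, while the assembly factors are lowest in Day 0 replicate 4.

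The other genes of the pathway were taken from lists by known function. Of the mitochondrially encoded core subunits, 5 were in the table and all 5 were tested, with 2 higher and 3 lower by mean log2 value and 0 past the threshold. The differences were 1.05 (SE 1.38) for mt-Nd1, -0.91 (SE 2.36) for mt-Nd2, 1.35 (SE 1.70) for mt-Nd4, -1.54 (SE 2.24) for mt-Nd5 and -1.82 (SE 2.31) for mt-Nd6. Their reads summed to 155, 20.2, 60.1 and 48.0 RPM in Day 0 and to 37.4, 122, 26.8 and 70.5 in Recurring libraries. The order of the libraries by these sums was not that of the nuclear subunits, since Day 0 replicate 1 was highest and Day 0 replicate 2 lowest. These RNAs are made inside mitochondria, outside the nucleus.

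Assembly factors help build the complex and are absent from the finished enzyme. Of 20 in the table, 18 were tested, 11 with a higher and 7 with a lower mean log2 value in Recurring libraries, a median difference of 0.22 and 0 past the threshold. Ndufaf3, which works on the early Q module, stood at 9.67, 234, 134 and 104 in Day 0 and at 499, 706, 858 and 653 in Recurring libraries. All Recurring libraries were above all Day 0 libraries, and the difference was 3.11 (SE 1.26, 95% interval 0.46 to 5.76, limma adjusted p = 0.981). Ndufaf6, another early factor, stood at 972, 69.4, 320 and 101 against 0, 8.07, 2.12 and 52.8. All Recurring libraries were below all Day 0 libraries, and the difference was -5.12 (SE 2.23, 95% interval -9.83 to -0.42, limma adjusted p = 0.981). These 2 of the 18 were the assembly factors at an unadjusted p under 0.05, beside 3.62% of all genes tested, and they lay on opposite sides. They were also the 2 whose groups did not overlap, beside 2.41% of all genes tested. Both were named for the smallest p of the list, and their intervals are not adjusted for that choice. Ndufaf4, the partner of Ndufaf3, differed by 0.79 (SE 0.94). The summed reads of the list were 402 RPM in Day 0 replicate 4 and 832 to 1187 in the other 7 libraries. The libraries with the lowest subunit sums, Day 0 replicate 3 and Recurring replicate 1, were at 1178 and 978 here.

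The regulators are transcription factors, coactivators and mitochondrial transcription proteins known to act on respiratory genes. Of 15 in the table, 13 were tested, 5 higher and 8 lower by mean log2 value, with a median difference of -0.39 and 0 past the threshold. Nrf1, for NRF1, whose word was among those searched in the promoters, differed by 0.85 (SE 0.89). Yy1, for the factor of the YY1 word, was not among the regulators chosen to be named. Gabpa and Gabpb1, the subunits of GABP, differed by -2.09 (SE 2.21) and -3.30 (SE 1.86), each with Recurring replicate 1 at 0. Esrra, for oestrogen-related receptor alpha, stood at 282, 414, 202 and 426 in Day 0 and at 119, 29.9, 163 and 50.7 in Recurring libraries. It was the only regulator of the 13 whose groups did not overlap, beside 2.41% of all genes tested. The difference was -2.08 (SE 1.39, limma adjusted p = 0.981). The coactivator gene Ppargc1a differed by -0.39 (SE 2.36), with values from 0 to 1616 within Day 0. Tfam, for the main mitochondrial transcription factor, differed by 2.54 (SE 2.51) and was at 0 in Day 0 replicates 1 and 4.

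Among 42 nuclear genes of complexes II to V, all tested, 23 were higher and 19 lower by mean log2 value, with a median difference of 0.063 and 0 past the threshold. Atp5mg, of the ATP synthase membrane part, was the only gene of the list at an unadjusted p under 0.05, beside 3.62% of all genes tested. Its difference was 3.46 (SE 1.29, limma adjusted p = 0.981). Atp5f1b, the catalytic beta subunit, had the most reads and differed by 0.11 (SE 0.32). Its 95% interval of -0.57 to 0.79 was narrower than that of any complex I gene. The sums over this list were 4908, 4588, 3567 and 4225 RPM in Day 0 and 2860, 5046, 4382 and 6678 in Recurring libraries. As for complex I, Recurring replicate 4 was highest, with 38 of 42 genes above their own mean, and Day 0 replicate 3 and Recurring replicate 1 were lowest, with 16 and 10.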

How the data were processed

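RNA of nuclei from 8 WT mouse hippocampal libraries was sequenced by the authors, who, per the submitters' processing notes, used STAR, HTSeq and GRCm39 (no versions given). What the authors deposited is a signal on a linear scale for 15519 genes in each library. Within a gene, these values were whole reads times a constant, so they carried no correction for depth. With the constant removed, all 95910 nonzero values came out whole to within 0.1 read. The recovery was also run on simulated tables built with the same form of constant. That check could not test whether the deposited values follow this form.

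Size factors (median of ratios, 0.837 to 1.61, from 6091 genes read in all 8 libraries) turned reads into normalized counts. The 11078 genes that reached 10 in 4 libraries were fitted with limma 3.58.1 in R 4.3.3 on log2(normalized count + 1), with a variance trend and Benjamini-Hochberg adjustment over all of them, at a threshold of 0.05. Differences are Recurring minus Day 0; the pseudocount of 1 understates folds of low genes. P-values reflect no more than the variation among these libraries, which may be technical. For library measures a 2-sided exact permutation test used all 70 arrangements. No gene length was used, so the median level of the subunits beside that of all genes tested carries no correction for length.

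The members, gene lists and alternatives were chosen with earlier results of these data known. Named were the 4 higher and 4 lower tested members with the smallest p, the 2 with the most reads in each module, the nuclear core subunits, Ndufs4, Ndufab1, Ndufa4 and members that missed the filter. From each other list, the 2 genes with the smallest p and the 1 with the most reads were eligible, as were all mitochondrial core genes and 5 fixed regulators. Other members are named in ranges, or after their values were seen. Ndufa4l2, mt-Nd3 and mt-Nd4l were not analysed here, and 1 member is counted in the lists and not reported by itself. Alternatives were other scalings, pseudocounts and filters, no variance trend, voom, array weights, and leaving out each library.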

Additional observations from a re-analysis of the deposited data

Results flagged for a closer look

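In 86 groups of 4 libraries (43 genes, 2 groups), 13 held a library whose gap to its nearest neighbour took up more of the group's range than Dixon's 95% critical value allows, where chance flags about 1 in 20 groups. In 2 of the 13 (Ndufs6b and Ndufb4c) the other 3 libraries were all at 0, so any reads would have met the criterion. Of the 80 groups of the 40 tested genes 12 met it, beside 11.1% of the groups of all genes tested. Values are log2 of the normalized count plus 1. Recurring replicate 1 stood apart 5 times, at 0 for Ndufa2, Ndufb1 and Ndufs8, at 2.72 for Ndufb4, and above the others at 5.28 for Ndufs6b. Day 0 replicate 4 stood apart 3 times, above the others at 11.22 for Ndufa10 and 9.45 for Ndufa11 and below them at 6.82 for Ndufa4. Day 0 replicate 1 was at 0 for Ndufs8 and high at 8.67 for Ndufs6. Recurring replicate 4 was high at 9.06 for Ndufc1 and 5.27 for Ndufb4c. Recurring replicate 2 was low at 2.08 for Ndufa7. Of the 13, 7 were low, and 4 of those were at 0 reads.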

How the results depend on the processing

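Under all 18 alternatives 0 complex I genes passed the adjusted threshold, and the lowest adjusted p of any named complex I gene was 0.913. Over all genes the count was 0 except without a variance trend, where it was 2. Complex I genes at an unadjusted limma p under 0.05 numbered 0 with all libraries in every setting. Leaving out a library gave 0 to 1, the 1 being Ndufa9 without Recurring replicate 1, its lowest library. Over all genes tested, the share was 3.36% to 4.68% with all libraries and 4.14% without Recurring replicate 1. With a normalized count of 10 or more required in all 8 libraries, 26 complex I genes remained to be tested. Of these, 14 were higher in Recurring libraries, beside 50.8% of all genes tested. Other settings gave 21 to 32 of 41 higher, beside 45.0% to 54.2% of all genes tested. With no filter, 25 of 44 were higher, beside 49.5%. The 19 named genes tested included the 4 higher and 4 lower members with the smallest p, whose signs were less likely to turn. Of these 19, 13 kept their sign under every alternative run for them. That was 18 alternatives, or 17 for Ndufa8, Ndufb1 and Ndufs6b, since these miss the stricter filter. Among the 13, Ndufa5 and Ndufb1 could not turn on leaving out a library, since their groups did not overlap. The other 6 turned: Ndufab1 to -0.082 with voom, Ndufs3 to 0.057 and Ndufv1 to 0.12 with array weights, and on leaving out a library Ndufab1 (-0.63 to 0.97), Ndufs1 (-0.55 to 0.082), Ndufs3 (-0.44 to 0.15), Ndufs4 (-1.06 to 0.32), Ndufs8 (-0.52 to 3.79) and Ndufv1 (-0.44 to 0.20). Members outside the 19, such as Ndufa6, Ndufa7, Ndufb11 and Ndufc1, also turned without their lowest library. The cause was not tested. No paired analysis was possible because the replicate numbers only follow the order of deposit. A gene at 0 reads in a library could still have an expected count of up to 3 there by counting error alone. This limit does not cover other variation between libraries.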

Other observations

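Genes that make NADH for complex I, or bring the electrons of cytosolic NADH to the matrix, were also split. Of 15 shuttle and dehydrogenase genes present, 14 were tested, 7 with a higher and 7 with a lower mean log2 value in Recurring libraries, a median difference of 0.026 and 0 past the threshold by limma. Mdh1, the cytosolic malate dehydrogenase of the malate-aspartate shuttle, stood at 5464, 3707, 2610 and 3216 in Day 0 and at 2424, 8457, 6576 and 9614 in Recurring libraries. Recurring replicates 2 to 4 were above every Day 0 library and replicate 1 was below them all. The difference was 0.73 (SE 0.42, limma adjusted p = 0.981). Got1, the cytosolic aspartate aminotransferase of the same shuttle, stood at 2585, 1596, 1624 and 727 against 2819, 1975, 2266 and 3724, with a difference of 0.82 (SE 0.48) and 1 Day 0 library, replicate 1, inside the Recurring range.

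Enzymes that feed ubiquinone without complex I had 6 genes in the table and 4 tested, 2 higher and 2 lower by mean log2 value. By limma, 0 passed the threshold and 0 were at an unadjusted p under 0.05, beside 3.62% of all genes tested. Etfdh, which passes on electrons of fatty acid oxidation, stood at 274, 337, 736 and 1343 in Day 0 and at 8.67, 587, 28.6 and 525 in Recurring libraries. Recurring replicates 1 and 3 were far below the rest, and the difference was -2.51 (SE 1.45). Dhodh, of pyrimidine synthesis, differed by 2.45 (SE 1.72). Sdha, the flavin subunit of complex II, stood at 3088, 2372, 2432 and 2842 against 1565, 4392, 2676 and 2811. Its difference was 0.0077 (SE 0.41), with a 95% interval of -0.86 to 0.88.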
